A study of Mus musculus with 2 samples.

Results

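The 10 genes described here encode secreted inflammatory cytokines and growth factors: Tnf, Osm, Il6, Il10, Il12a, Il12b, Il23a, Il18, Csf1 and Csf3. They were chosen by name, and each was found once among the 35522 features of the expression tables of 2 mouse neutrophil libraries. The cells came from mouse bone marrow by a sort for CD11b with high Ly6G and low or no Ly6C, and both cultures received 10 ng/ml GM-CSF, a growth factor that keeps myeloid cells alive. The PBS group received phosphate-buffered saline for 3 days. The exosome group received 20 ug/ml of exosomes for the same 3 days. Exosomes are small vesicles released by cells, here by SDCSCs, the cancer stem cells obtained as spheres from CT26, a mouse colon carcinoma line, in serum-free medium. Strain, age and pooling of animals are not given in the labels for either group. Each group holds 1 library of poly(A)-selected RNA, so there is no spread between replicates and no test was made between the treatments.

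Cytokines are small proteins that one cell releases to instruct others. TNF and the IL-12 family are produced by myeloid cells that sense microbial products or tissue damage, and much of their output is set by how fast the gene is transcribed and how fast the mRNA is degraded. Neutrophils are known to release TNF and oncostatin M at inflamed sites, and they depend on the growth factor G-CSF, the product of Csf3, for their formation in the bone marrow.

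Expression is given as RPKM, the reads of a gene scaled by the length of its exons and by the mapped reads of the library. It is a level per length, so genes can be set side by side within a library. The depth was estimated at 65.97 M (mega) mapped reads for PBS and 79.13 M for exosomes, and 14679 and 14916 features stood above 0. Genes with at least 0.25 RPKM in each library were kept, 9698 in all. A kept gene was called higher when its exosome level was at least 2 times its PBS level, and lower when it was at most 0.5 times. The words rose and fell are used only for such genes. Each 95% counting interval was built from estimated reads. It covers counting error only and leaves out all variation between cultures and animals.

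Of the 10 genes, 7 were kept. Tnf, Il12a and Csf3 rose, Osm and Csf1 fell, and Il10 and Il18 stayed within 2-fold. Il6, Il12b and Il23a were below 0.25 RPKM in at least 1 library and received no call. Across all genes kept, 31.5% rose and 5.62% fell, against 3 and 2 of these 7 (42.9% and 28.6%), and 8.52% of all genes kept rose at least 4-fold, against 2 of the 7, Il12a and Csf3. With 7 genes these shares are a description and nothing was read from them about the genes as a class. The median log2 ratio of the 7 was 0.56, beside 0.53 for all genes kept.

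**Figure D1:**
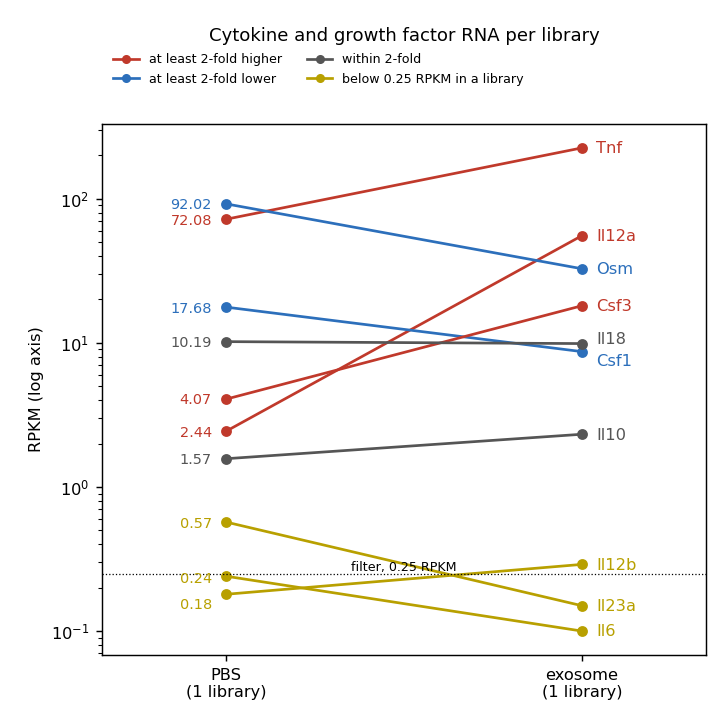
RPKM on a log axis of each of the 10 genes in the PBS library and in the exosome library, 1 library each, with a line joining the 2 values of a gene. Tnf, Il12a and Csf3 climb while Osm and Csf1 descend, and Il6, Il12b and Il23a lie around or under the dotted filter at 0.25 RPKM.

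The order of the levels differed between the libraries. In PBS-treated neutrophils Osm came first at 92.02 RPKM, followed by Tnf, Csf1, Il18, Csf3, Il12a, Il10, Il23a, Il6 and Il12b, the last at 0.18 RPKM. In exosome-treated neutrophils Tnf came first at 225.1 RPKM, followed by Il12a, Osm, Csf3, Il18, Csf1, Il10, Il12b, Il23a and Il6, the last at 0.1 RPKM. The exact Poisson intervals of most neighbours in these orders did not overlap. The exceptions were Il6 and Il12b in PBS (0.142 to 0.378 and 0.112 to 0.271 RPKM) and, with exosomes, Il12b against Il23a and Il23a against Il6. The intervals of Il18 and Csf1 with exosomes, 9.14 to 10.7 and 8.37 to 9.01 RPKM, lay close to each other. Whether any of these orders would hold in another culture was not measured.

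Tnf encodes tumor necrosis factor, made as a membrane protein and cut free at the cell surface (chromosome 17, 35199367 to 35202007, minus strand, mouse build GRCm38.p6, as for all positions given here). Its level was 72.08 RPKM in PBS and 225.1 RPKM with exosomes, from about 7794 and 29193 reads. It rose 3.12-fold, a log2 ratio of 1.64 (1.61 to 1.68). Tnf moved from rank 707 to rank 185 among all features, so with exosomes it stood among the most abundant mRNAs of these cells. Among all genes kept, 14.5% had a higher log2 ratio. Genes as abundant as Tnf, those with a mean of at least 50 RPKM, had a median log2 ratio of 0.04, and 12.5% of them rose.

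Tnf lies between Ltb and Lta, which encode the chains of lymphotoxin. The 3 genes did not move together. Ltb, 3062 bases away, was listed at 256.95 RPKM in PBS and 248.84 RPKM with exosomes, and Lta, 1158 bases away on the other side, at 1.22 and 1.11 RPKM. The RPKM of Ltb was 3.56 times that of Tnf in PBS and 1.11 times with exosomes. Thus the 2 abundant genes of this cluster came to nearly the same level.

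Il12a encodes the p35 chain of IL-12 and of IL-35 (chromosome 3, 68690644 to 68698550, plus strand). It was listed at 2.44 RPKM in PBS and 55.32 RPKM with exosomes, from about 210 and 5704 reads. It rose 22.7-fold, a log2 ratio of 4.50 (4.30 to 4.71), the largest change of the 10 genes. Only 0.175% of all genes kept had a higher log2 ratio, and the rank of Il12a went from 6315 to 1025. A gene of middling to low abundance in PBS thus became the second most abundant of the 10. Of its neighbours, Schip1, 64162 bases away, rose from 0.55 to 3.04 RPKM, and 1110032F04Rik on the other side was not kept.

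The other chain of IL-12, p40, is encoded by Il12b (chromosome 11, 44400063 to 44414677, plus strand) and is shared with IL-23. A cell secretes IL-12 only when it makes both chains. Il12b was listed at 0.18 RPKM in PBS and 0.29 RPKM with exosomes, about 22 and 43 reads. Its log2 ratio of 0.69 had a counting interval of -0.07 to 1.52, so at this depth a difference was not detectable. The RPKM of Il12a was 13.6 times that of Il12b in PBS and 191 times with exosomes. The counting intervals of the 2 log2 ratios did not overlap, so the mRNA of the 2 chains of IL-12 did not gain in step.

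Il23a encodes p19, which joins p40 to form IL-23 (chromosome 10, 128296140 to 128298084, minus strand). Its values were 0.57 RPKM in PBS and 0.15 RPKM with exosomes, about 51 and 16 reads, a log2 ratio of -1.93 (-2.84 to -1.10). The interval left out 0, but the exosome value lay under the filter and no call was made. The RPKM of Il23a was 3.17 times that of Il12b in PBS and 0.517 times with exosomes. With exosomes the Poisson intervals of Il23a and Il12b overlapped (0.085 to 0.241 and 0.211 to 0.393 RPKM), so their order there is not fixed. The mRNAs of both chains of IL-23 were thus scarce in both libraries.

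Ebi3 encodes a chain that pairs with p35 as IL-35 and with the product of Il27 as IL-27. It rose from 54 to 175.61 RPKM, a log2 ratio of 1.70 (1.65 to 1.75). Its RPKM was 22.1 times that of Il12a in PBS and 3.17 times with exosomes. Il27 was listed at 1.44 and 1.58 RPKM. Of the chains of the IL-12 family, Il12a and Ebi3 were the pair that rose, and the mRNA levels do not show which dimers were formed or secreted.

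Csf3 encodes G-CSF, the growth factor of neutrophils (chromosome 11, 98700183 to 98703631, plus strand). Its level was 4.07 RPKM in PBS and 18.07 RPKM with exosomes, from about 379 and 2020 reads. It rose 4.44-fold, a log2 ratio of 2.15 (1.99 to 2.31), and 6.77% of all genes kept had a higher ratio. The genes on either side of Csf3 also rose, as did 31.5% of all genes kept. Psmd3, a proteasome subunit gene 4205 bases away, went from 5.68 to 20.93 RPKM (log2 ratio 1.88), and Med24, a Mediator subunit gene 966 bases away, went from 1.33 to 4.05 RPKM (1.61). Whether reads were assigned by strand is not stated, and in RefSeq the spans of long noncoding RNAs overlap Csf3 (Gm38985), Csf1 (Gm40121) and Il6 (A230098N10Rik), so reads of shared exons could not be told apart without strand.

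Csf1 encodes M-CSF, the growth factor of macrophages (chromosome 3, 107741048 to 107760469, minus strand). Its level was 17.68 RPKM in PBS and 8.69 RPKM with exosomes, from about 4871 and 2871 reads. The change was 2.03-fold lower, a log2 ratio of -1.02 whose counting interval, -1.09 to -0.96, included the 2-fold limit. It fell just past the limit and came to lie within 2-fold after rescaling to TPM (-0.98) or with a pseudocount of 1 (-0.95). The RPKM of Csf3 was 0.230 times that of Csf1 in PBS and 2.08 times with exosomes. The 2 colony-stimulating factor genes therefore exchanged places.

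Osm encodes oncostatin M, a cytokine of the IL-6 family (chromosome 11, 4236785 to 4241026, plus strand). It was listed at 92.02 RPKM in PBS and 32.67 RPKM with exosomes, from about 13792 and 5873 reads. It fell to 0.355 of its PBS level, a log2 ratio of -1.49 (-1.54 to -1.45). Among all genes kept, 2.69% had a lower ratio, and 11.4% of the genes with a mean of at least 50 RPKM fell. The most abundant of the 10 genes in PBS was thus the one that fell furthest among those kept. Lif, the related gene that lies 16542 bases from Osm, was listed at 0.07 and 0.04 RPKM.

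Il6 itself, the gene of the fever and acute phase cytokine IL-6 (chromosome 5, 30013114 to 30019975, plus strand), was scarce. It was listed at 0.24 RPKM in PBS and 0.1 RPKM with exosomes, about 18 and 9 reads. Its log2 ratio was -1.26 with a counting interval of -2.60 to -0.03. With so few reads the size of the difference is poorly fixed, and no call was made. A level of 3 reads would be 0.0399 RPKM in PBS and 0.0332 RPKM with exosomes, so Il6 mRNA was above that floor in both libraries.

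Il10 encodes the cytokine that restrains inflammatory gene expression in myeloid cells (chromosome 1, 131019845 to 131024970, plus strand). Its values were 1.57 and 2.32 RPKM, about 136 and 240 reads, a log2 ratio of 0.56 (0.25 to 0.87). The interval lay above 0 and within the 2-fold limit. Genes of like abundance, with a mean of 1 to 5 RPKM, had a median log2 ratio of 1, so Il10 stood below the middle of its band. Its neighbour Mapkapk2, which encodes a kinase that stabilises cytokine mRNA and lies 28730 bases away, rose from 133.23 to 276.58 RPKM.

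Il18 encodes a cytokine of the IL-1 family that is cut to its active form by caspase-1 (chromosome 9, 50554700 to 50581841, plus strand). It was listed at 10.19 RPKM in PBS and 9.88 RPKM with exosomes, about 578 and 672 reads, a log2 ratio of -0.04 (-0.21 to 0.12). By counting error alone, a change as large as 2-fold between these 2 libraries lay outside the interval. Casp1, the gene of that protease, rose from 7.26 to 17.12 RPKM (log2 ratio 1.24). Il18bp, whose product binds IL-18 in the medium, was listed at 8.03 and 5.35 RPKM (-0.59), and the RPKM of Il18 was 1.27 and 1.85 times that of Il18bp. The span of Il18 overlaps those of Bco2 (3.4 and 2.11 RPKM) and Tex12 (0.15 and 0.27 RPKM).

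**Figure D2:**
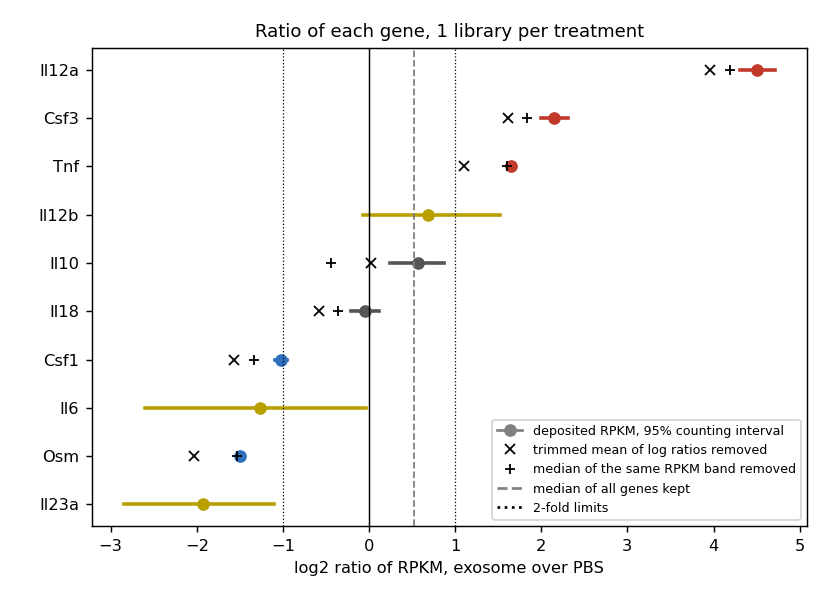
Log2 ratio of RPKM, exosome over PBS, for each of the 10 genes (circles) with its 95% counting interval (bars), and the same ratio after removing a trimmed mean of log ratios (crosses) or the median of genes of like level (plus signs), for the genes kept. Il12a stands at 4.50 and Osm at -1.49, and Il6, Il12b and Il23a carry the widest intervals.

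The whole table leaned towards higher values with exosomes, by a median log2 ratio of 0.53, and this lean was not even across levels. The median was 0.48 below a mean of 1 RPKM, 1 from 1 to 5, 0.67 from 5 to 10, 0.31 from 10 to 50 and 0.04 from 50 upwards. With the overall median subtracted, Tnf stood at 1.12, Csf3 at 1.62, Il12a at 3.98, Osm at -2.02 and Csf1 at -1.55, all still past 2-fold. On that scale Il10 stood at 0.04 and Il18 at -0.57. With that centring the split over all genes kept was 16.8% higher and 13.2% lower, in place of 31.5% and 5.62%.

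**Figure D3:**
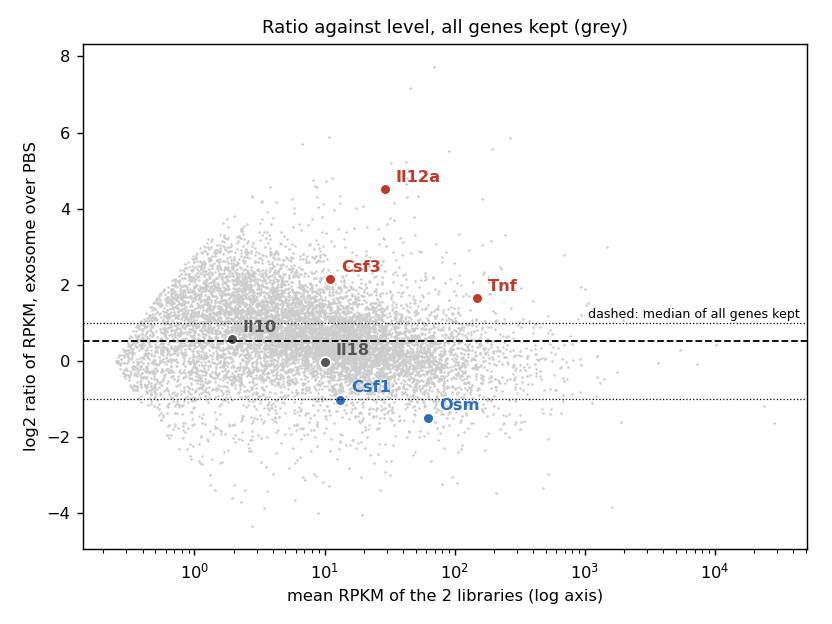
Log2 ratio of RPKM, exosome over PBS, against the mean RPKM of the 2 libraries on a log axis, for all 9698 genes kept (grey points) with the 7 cytokine and growth factor genes kept in colour. The dashed line is the median of all genes kept, 0.53, and dotted lines mark 2-fold; Il12a lies near the upper edge of the cloud and Osm in its lower part.

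The summed RPKM of the 10 genes was 201.04 in PBS and 352.59 with exosomes, and its make-up changed. Osm held 45.8% of the sum in PBS and 9.27% with exosomes, while Tnf held 35.9% and 63.8%. Il12a went from 1.21% to 15.7% and Csf3 from 2.02% to 5.12%. In PBS, Osm and Tnf were of like size, with 1.28 times as much Osm as Tnf, whereas with exosomes Tnf was 6.89 times Osm. Csf1 went from 8.79% to 2.46% and Il18 from 5.07% to 2.80%.

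**Figure D4:**
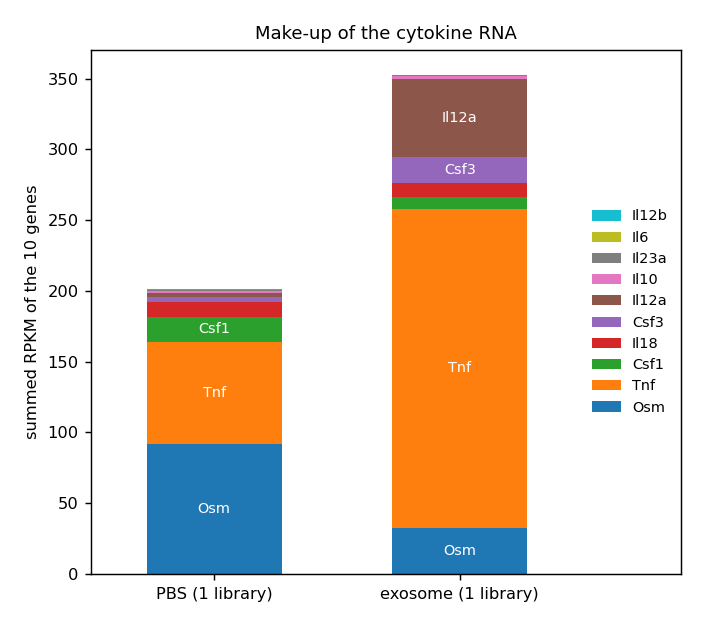
Summed RPKM of the 10 genes in the PBS library and in the exosome library, stacked by gene. The stack is 201.04 RPKM in PBS, led by Osm, and 352.59 RPKM with exosomes, led by Tnf.

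The sequences before the starts of 4 genes are shown: Tnf and Il12a, which rose, Csf1, which fell, and Il6, which was scarce in both libraries. They are the 250 bases before each annotated start, from RefSeq (GRCm38.p6), written 5′ to 3′ on the strand of the gene. The table of starts matched 6 of the 10 genes, with 2 starts for Il12a, and Il10, Il23a, Csf3 and Osm were not matched. Capitals mark the letters of the κB consensus (the site bound by NF-κB), of TGANTCA (bound by AP-1), of TTGCNNAA (bound by C/EBP proteins) and of TATAAA (the TATA box), each searched on both strands. The windows are those of Tnf (chr17:35202008-35202257, minus strand), Il12a (chr3:68690394-68690643 and chr3:68691174-68691423, plus strand), Csf1 (chr3:107760470-107760719, minus strand) and Il6 (chr5:30012864-30013113, plus strand).
Tnf: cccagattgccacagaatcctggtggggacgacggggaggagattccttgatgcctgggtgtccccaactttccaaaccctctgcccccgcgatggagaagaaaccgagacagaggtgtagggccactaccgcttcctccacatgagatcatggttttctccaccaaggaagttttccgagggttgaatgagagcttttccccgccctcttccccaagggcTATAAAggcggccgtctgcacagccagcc
Il12a, first start: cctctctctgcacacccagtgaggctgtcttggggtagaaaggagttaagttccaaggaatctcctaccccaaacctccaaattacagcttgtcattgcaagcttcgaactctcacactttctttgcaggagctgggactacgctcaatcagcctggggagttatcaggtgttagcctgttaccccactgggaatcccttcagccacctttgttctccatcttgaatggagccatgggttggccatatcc
Il12a, second start: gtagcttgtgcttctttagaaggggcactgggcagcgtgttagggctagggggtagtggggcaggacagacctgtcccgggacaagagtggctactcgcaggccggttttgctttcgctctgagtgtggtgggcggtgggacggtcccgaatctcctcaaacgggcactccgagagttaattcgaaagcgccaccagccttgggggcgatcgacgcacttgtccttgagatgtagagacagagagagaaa
Csf1: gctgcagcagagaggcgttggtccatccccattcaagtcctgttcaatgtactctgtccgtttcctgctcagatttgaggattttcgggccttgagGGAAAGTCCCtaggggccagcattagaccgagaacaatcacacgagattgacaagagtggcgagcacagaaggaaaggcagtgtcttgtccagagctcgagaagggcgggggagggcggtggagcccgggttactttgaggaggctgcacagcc
Il6: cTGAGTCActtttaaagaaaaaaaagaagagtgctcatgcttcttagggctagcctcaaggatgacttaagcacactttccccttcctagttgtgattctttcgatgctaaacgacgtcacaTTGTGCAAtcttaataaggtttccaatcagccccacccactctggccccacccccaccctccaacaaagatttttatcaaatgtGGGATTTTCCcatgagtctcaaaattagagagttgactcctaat

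Il6 held the most motifs of these windows and Il12a none. The Il6 window held a κB match 44 to 35 bases before the start, a TGANTCA match 249 to 243 bases before it and a TTGCNNAA match 128 to 121 bases before it on the other strand. The Csf1 window held a κB match 154 to 145 bases before the start on the other strand. The Tnf window held TATAAA 29 to 24 bases before the start. Of the windows not printed, that of Il18 held TATAAA on the other strand 175 to 170 bases before the start, and that of Il12b held none of the 4 motifs.

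Among 32851 windows of the same length, 7.25% held the κB consensus, 6.75% TGANTCA, 9.56% TTGCNNAA and 12.4% TATAAA. A match describes letters and does not show that a protein binds there. No match says only that these letters are not in this window.

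The receptor genes of these cytokines were set beside them, since their mRNA bears on which of the signals the same cells could receive. Of 15 receptor genes 10 were kept, of which 4 rose, 1 fell and 5 stayed within 2-fold, with a median log2 ratio of 0.57 beside 0.53 for all genes kept, of which 31.5% rose and 5.62% fell. With the overall median subtracted the balance turned to 1 higher and 3 lower: Csf1r, Il18r1 and Tnfrsf1b came within 2-fold, and Tnfrsf1a and Il18rap joined Csf3r among the lower. The mRNAs of both TNF receptors were abundant. Tnfrsf1a, the receptor with a death domain, was listed at 189.88 and 127.54 RPKM (log2 ratio -0.57), and Tnfrsf1b, the receptor without one, rose from 136.04 to 287.16 RPKM (1.08). The RPKM of Tnfrsf1a was 1.40 times that of Tnfrsf1b in PBS and 0.444 times with exosomes, so the more abundant receptor gene changed while Tnf rose.

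Csf3r, the G-CSF receptor and a marker of neutrophils, fell from 1548.56 to 715.09 RPKM (-1.11), while Csf1r, the M-CSF receptor and a marker of monocytes and macrophages, rose from 58.1 to 152.64 RPKM (1.39). Each growth factor gene and its receptor gene thus moved in opposite directions, with Csf1 at the 2-fold limit. The RPKM of Csf3r was 380 times that of Csf3 in PBS and 39.6 times with exosomes, and that of Csf1r was 3.29 and 17.6 times that of Csf1. Il10ra, the chain that binds IL-10, rose from 16.37 to 57.44 RPKM (1.81), and its partner Il10rb was listed at 74.85 and 128.86 RPKM (0.78). The mRNA of each IL-10 receptor chain was therefore far more abundant than that of Il10 itself, which was at 1.57 and 2.32 RPKM.

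Il6ra, which binds IL-6, was listed at 53.93 and 68.63 RPKM (0.35), while Il6st, which encodes the signalling chain gp130 shared by IL-6 and oncostatin M, was at 0.64 and 0.66 RPKM. Osmr was listed at 0 in both libraries and Lifr at 0.05 and 0.09 RPKM. The mRNAs of the chains for an answer to oncostatin M were thus scarce in the cells in which Osm mRNA was abundant. For IL-12 and IL-23, Il12rb1 was listed at 0.12 RPKM in both, Il12rb2 at 0.09 and 0.21 RPKM and Il23r at 0.04 and 0.08 RPKM. For IL-18, Il18r1 rose from 2.96 to 7.22 RPKM (1.29), while Il18rap, its signalling partner, was listed at 95.66 and 54.34 RPKM (-0.82).

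**Figure D5:**
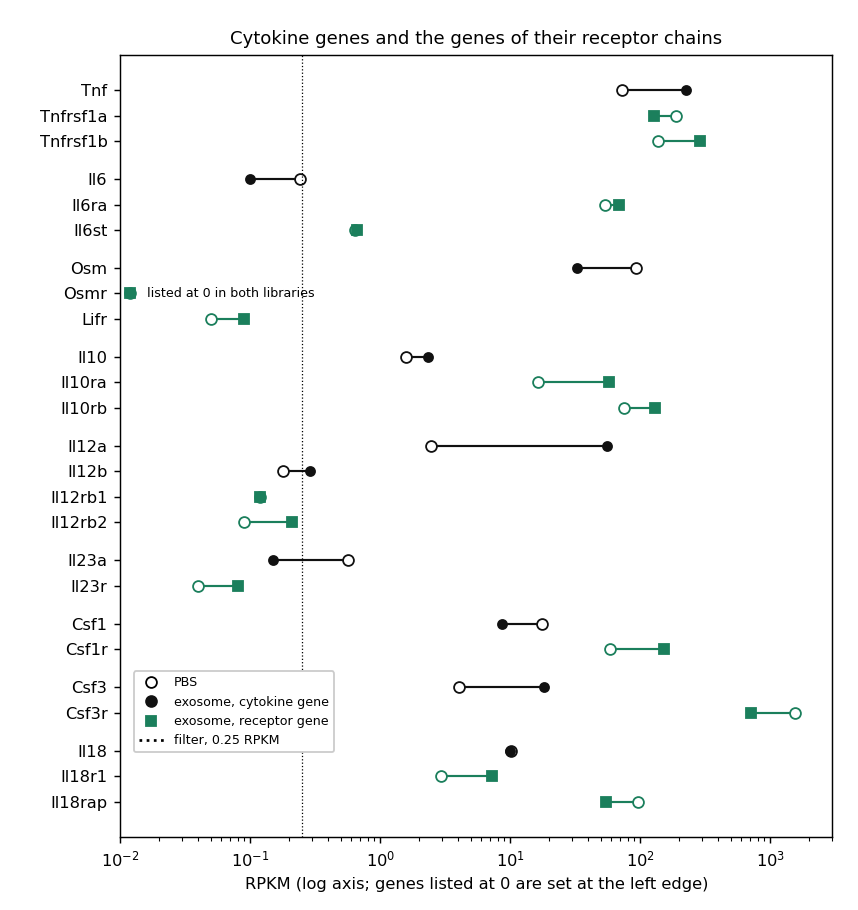
RPKM on a log axis of each cytokine gene (black) and of the genes of its receptor chains (green), with open circles for PBS and filled symbols for exosomes, 1 library each. Csf3 and Csf3r move towards each other, Csf1 and Csf1r move apart, and the receptor chains for oncostatin M, IL-12 and IL-23 lie under the dotted filter at 0.25 RPKM, apart from Il6st, which is drawn with Il6.

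The list of partner, maturation and inhibitor genes, with Il34 as another receptor ligand, held 7 genes. Of these, 6 were kept, 2 rose and none fell (31.5% and 5.62% over all genes kept). The 2 were Ebi3 and Casp1. With the overall median subtracted 1 was higher, Ebi3, and 2 were lower, Rhbdf2 and Il18bp. Adam17, the protease that releases TNF from the membrane, was listed at 151.07 and 141.41 RPKM, and Rhbdf2, which brings Adam17 to the cell surface, at 59.56 and 42.01 RPKM. On the deposited scale the genes for releasing TNF thus stayed within 2-fold while Tnf rose. Il34, the other ligand of the M-CSF receptor, was listed at 0 and 0.00688 RPKM.

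Of 17 genes whose products control the decay or stability of cytokine mRNA, all were kept, 6 rose and 1 fell. The shares over all genes kept were 31.5% and 5.62%. The median log2 ratio of the 17 was 0.59, close to the 0.53 of all genes kept. With the overall median subtracted 4 of the 17 were higher and 2 lower. Many products of these 17 genes bind AU-rich or stem-loop elements, such as those of the Tnf and Il6 mRNAs. Zfp36l1, a decay factor of the tristetraprolin family, rose from 8.32 to 72.04 RPKM (3.11), and Zc3h12c, a relative of the RNase regnase-1, rose from 8.01 to 45.96 RPKM (2.52). They were the 2 genes of this list that changed at least 4-fold. The 1 that fell was Zfp36l2, from 353.97 to 112.63 RPKM (-1.65), named here after its value was seen.

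The list of JAK, STAT and SOCS signalling, through which IL-6, IL-10, IL-12, G-CSF and oncostatin M act, held 20 genes. Of these, 18 were kept, 5 rose and none fell, beside 31.5% and 5.62% of all genes kept. The median log2 ratio of the 18 was 0.49, close to the 0.53 of all genes kept. With the overall median subtracted 3 of the 18 were higher and 0 lower. Stat4, the factor that IL-12 activates, rose from 0.35 to 1.8 RPKM (2.36), and Jak3 rose from 2.37 to 11.75 RPKM (2.31). These 2 were the genes of the list past 4-fold. Of 25 transcription factors known at cytokine genes, all were kept, 5 rose (Nfkb1, Nfkb2, Relb, Batf and Ets2) and 3 fell (Atf3, Fos and Jun), none by 4-fold, beside 31.5% and 5.62% of all genes kept. With the overall median subtracted 1 was higher, Batf, and 4 were lower, so that Nfkb1, Nfkb2, Relb and Ets2 came within 2-fold. The median log2 ratio of these factors was 0.08, beside 0.53 for all genes kept. These 8 were named after their values were seen, and Fos, from 393.15 to 195.68 RPKM, lay at the 2-fold limit.

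Of 55 other secreted cytokines and growth factors, 18 were kept, and 16 were listed at 0 in both libraries. Of the 18 kept, 6 rose and 1 fell, beside 31.5% and 5.62% of all genes kept. The median log2 ratio of the 18 was 0.04, beside 0.53 for all genes kept. With the overall median subtracted 4 of the 18 were higher and 3 lower. Mif, which encodes macrophage migration inhibitory factor, rose from 20.82 to 138.04 RPKM (2.73) and was the one gene of that list past 4-fold. Il15, a cytokine for lymphocytes, was the one that fell, from 13.36 to 4.07 RPKM (-1.71), and it was named after its value was seen. Csf2, the gene of the GM-CSF that both cultures received as protein, was at 0.04 and 0.09 RPKM, and it too was named after its values were seen.

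For each of the 7 genes kept, the gene of the whole table with the most similar pair of levels was found by distance on the log2 RPKM of the 2 libraries. Tnf was nearest to Lrrc25 (79.67 and 237.13 RPKM, distance 0.16), Csf3 to Ndufc1 (3.99 and 18.13 RPKM, 0.03) and Osm to Xpo6 (96.52 and 33.9 RPKM, 0.09). Csf1 was nearest to Eea1, Il10 to Kif13b and Il18 to Zscan29. Il12a had the least close match, Apoc2 (1.73 and 63.54 RPKM, 0.53). With 2 libraries such likeness rests on 2 values a gene.

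Markers of cell types moved with these results. All 11 neutrophil markers were kept and had a smaller value with exosomes. Of these 11, 10 fell and 1 stayed within 2-fold, while 5.62% of all genes kept fell. The summed RPKM of the 11 went from 84588.9 to 30462. Most of that sum was S100a8 (32822.8 and 14381.8 RPKM) and S100a9 (43059.1 and 13834.1 RPKM). Ly6g was at 286.96 and 56.19 RPKM, so the sorted cell type was marked in both libraries. All 12 monocyte and macrophage markers had a larger value with exosomes and none was listed at 0, but only 6 of them were kept. Of these 6, 5 rose and 1 stayed within 2-fold, while 31.5% of all genes kept rose. The sum of all 12 went from 109.39 to 486.55 RPKM. Nearly all of it was Csf1r, Apoe (28.64 and 169.37 RPKM) and Adgre1 (listed as Emr1, 20.91 and 151.51 RPKM). The sums of the dendritic cell, B cell and T cell markers went the other way, from 113.38 to 74.97, from 104.14 to 64.05 and from 57.69 to 7.17 RPKM. Nearly all of the T cell sum was 1 gene, Cd3d, at 56.44 and 7.02 RPKM, while Cd3e was at 0.06 and 0.04 RPKM and Cd3g at 1.19 and 0.11 RPKM. NK cell markers summed to 0.01 and 0.519 RPKM, mast cell and basophil markers to 1.79 and 1.64 RPKM and eosinophil markers to 5.47 and 3.06 RPKM. The markers of CT26 cells summed to 0.38 and 0.0892 RPKM, with Krt8 and Col1a1 at 0 in both. In bulk RNA, fewer cells of a type and less RNA per cell cannot be told apart, and the part of these markers in the results for Tnf, Il12a, Csf3, Osm and Csf1 was not tested.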

How the data were processed

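Neutrophils from mouse bone marrow were treated with PBS or exosomes, and the RNA of each group was sequenced as 1 library. The authors extracted total RNA, made poly(A) mRNA libraries, trimmed the reads by base quality and processed them with CLC Genomics Workbench. They deposited the RPKM of each feature in each library. The submitters' processing notes name the build mm10. The annotation, the strand setting of the counting and the handling of reads that match several genes are not given in the sources used here. Read counts were not used here, so the ratio of RPKM was taken with no pseudocount.

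The 10 genes and all lists were chosen with earlier results of these data known. Named genes were the 10 genes, their receptors, partners and cell type markers whatever their change, genes of other lists changed at least 4-fold, neighbours on the chromosome, and the nearest gene by level. Exceptions are stated where they occur. The 25 features listed by a spreadsheet date number stayed in all counts and were not named.

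Depth was estimated from values below 0.01 RPKM, many of which stand for 1 read: with GENCODE transcript lengths, 265 of 904 such features gave one total in PBS and 306 of 1046 with exosomes. Estimated reads were quoted beside the levels and served for exact intervals (Clopper-Pearson for ratios, Poisson for levels), at 95%. The same depths and lengths gave the level of 3 reads. The exon models may differ from those of the authors, and the RPKM steps of 0.01 limit low values. Positions, starts and windows came from RefSeq, GRCm38.p6, and strand from GENCODE. Alternatives were 3 centrings, TPM, 3 filters, a pseudocount of 1 and a ratio of 4. Python 3.11.15, numpy 2.4.6, pandas 2.3.3, scipy 1.17.1 and matplotlib 3.10.9 were used, and the code was tested on simulated data.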

Additional observations from a re-analysis of the deposited data

How the results depend on the processing

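With 1 library per treatment, no library could be left out. No paired analysis was possible because each treatment holds 1 library. Tnf, Il12a, Csf3 and Osm stayed past 2-fold under all 8 alternatives for a ratio, with log2 ranges of 1.10 to 1.69, 3.96 to 4.55, 1.61 to 2.20 and -2.04 to -1.45. Csf1 ranged from -1.57 to -0.95 and was past 2-fold in 6 of 8. Il10 ranged from -0.44, with the median of its level band removed, to 0.61, and Il18 from -0.59 to 0.003. The number of the 10 genes that rose was 3 under each of these 8 settings and 2 at a ratio of 4. The number that fell, 2, became 1 with TPM, 1 with a pseudocount of 1, 3 with the filter in either library and a pseudocount of 0.25 (Il23a at -1.04), 4 with no filter and a pseudocount of 0.01, and 0 at a ratio of 4. With no filter Il6 stood at -1.18, Il12b at 0.66 and Il23a at -1.86. The 6 pathway lists held 10, 6, 17, 18, 25 and 18 kept genes, in the order described above. Over these lists 28 genes rose and 6 fell, beside 31.5% and 5.62% of all genes kept. With median centring 14 were higher and 14 lower, beside 16.8% and 13.2% of all genes kept. With a trimmed mean removed the counts were 14 and 15, beside 16.4% and 13.6%. With the band median removed they were 18 and 11, beside 13.95% and 13.4%. At a ratio of 4 they were 5 and 0, and 8.52% of all genes kept rose that far. Without Osm, Tnf held 66.1% of the PBS sum, and without Tnf, Il12a held 43.4% of the exosome sum. No sign of a called value reversed. The depth limits Il6, Il12b and Il23a, which rest on 9 to 51 reads a library.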
